A study of Mus musculus with 2 samples.

Results

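Edn1, Pthlh, Pdgfa, Ccn1 and Ccn2 encode secreted factors that were measured in single cells of mouse small-intestinal epithelium, and they are 5 of the 22253 gene rows of the expression matrix. They were selected on their measured levels in these cells, above all in stem-like cells, so their levels across cell classes are given as a description with no test. The cells came from 3 Etv1 mutant and 2 control organoid cultures of distal small intestine. Organoids are epithelial cultures grown in a gel from dividing crypt cells, and they also produce differentiated gut cells. Neurog3-RFP and Gcg-Venus were carried by all 5 cultures, controls included; the first reports on precursors of enteroendocrine (hormone-producing) cells and the other on cells that express proglucagon. The labels state neither the nature of the Etv1 mutation nor the sort gate, and they call the cultures biological replicates without naming the animals behind them, so p-values cover the spread between these cultures only.

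Endothelin-1, the product of Edn1, is a short peptide cut from a precursor by the endothelin-converting enzyme, and it contracts smooth muscle and acts on mesenchymal cells through the receptors Ednra and Ednrb. Parathyroid hormone-like hormone, from Pthlh, is a local relative of parathyroid hormone that signals through Pth1r, mostly from epithelium to the mesenchyme beneath it. Pdgfa encodes the A chain of platelet-derived growth factor; in the developing mouse gut it is made by the epithelium and is received by Pdgfra-positive mesenchyme under the villi. Ccn1 and Ccn2 encode matricellular proteins that bind integrins and are classical targets of the transcriptional co-activator YAP and its TEAD partners, and both also respond quickly to serum and mechanical stimuli.

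On mm10 (GENCODE vM21), Edn1 lies on the plus strand at chr13:42301476-42307990, Pthlh on the minus strand at chr6:147252101-147264183, Pdgfa on the minus strand at chr5:138976014-138997370, Ccn1 on the minus strand at chr3:145646976-145649981 and Ccn2 on the plus strand at chr10:24595442-24598683. Promoter windows from RefSeq on GRCm38.p6, running from 250 bases before to 50 bases after the start of transcription, matched 4 of the 5 genes. The sequences below, in the 5′ to 3′ direction of each gene, are shown because 2 of them hold the TEAD core GGAATG, written in capitals in its reverse complement, whereas Pthlh, another gene high in stem-like cells, holds none. The Edn1 window is chr13:42301226-42301525, the Ccn1 window chr3:145649936-145650235 and the Pthlh window chr6:147263964-147264263.
Edn1: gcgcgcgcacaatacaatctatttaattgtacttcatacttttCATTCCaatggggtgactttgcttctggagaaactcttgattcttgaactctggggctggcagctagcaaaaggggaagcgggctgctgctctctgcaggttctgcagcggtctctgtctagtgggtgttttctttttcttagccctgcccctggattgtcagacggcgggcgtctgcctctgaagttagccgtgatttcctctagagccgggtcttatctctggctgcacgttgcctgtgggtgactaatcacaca
Ccn1: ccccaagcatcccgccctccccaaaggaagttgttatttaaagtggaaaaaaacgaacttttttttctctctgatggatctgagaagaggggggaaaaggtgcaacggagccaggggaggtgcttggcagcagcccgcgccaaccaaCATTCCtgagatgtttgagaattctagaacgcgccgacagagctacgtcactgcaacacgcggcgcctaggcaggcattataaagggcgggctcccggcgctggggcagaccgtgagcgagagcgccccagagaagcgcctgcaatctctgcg
Pthlh: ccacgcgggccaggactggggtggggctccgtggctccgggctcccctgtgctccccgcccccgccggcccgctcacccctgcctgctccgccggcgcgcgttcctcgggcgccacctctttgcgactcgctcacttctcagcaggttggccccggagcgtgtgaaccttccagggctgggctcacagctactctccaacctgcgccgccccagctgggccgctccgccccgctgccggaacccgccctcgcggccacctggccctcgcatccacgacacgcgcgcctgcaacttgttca

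The TEAD core began 207 bases before the start in Edn1 and 103 bases before it in Ccn1, on the minus strand of the gene in both, and it was found in neither of the 2 Pdgfa windows. Of 32851 promoter windows of the same length, 14.7% held it on either strand, so its presence in 2 of these windows is a description and not a site of binding. The AP-1 site TGANTCA, held by 7.81% of all windows, the CArG box of serum response factor, held by 1.63%, and the ETS site CCGGAAGT, held by 3.89%, were in none of the windows of Edn1, Pthlh, Pdgfa and Ccn1. All were read on both strands and in these exact forms only, so variants of the sites were not searched and may be present. The TEAD core and the ETS site share the letters GGAA.

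The RNA and the hashtag table shared all 3409 barcodes. Of 2725 barcodes past the cell filter, 1432 were assigned to 1 culture by their hashtag, 282, 281 and 197 to mutant cultures 1 to 3 and 323 and 349 to control cultures 1 and 2, with between 4193197 and 7254380 summed counts a culture. They formed 10 clusters, of which 7 were named from marker genes, and 265 cells were stem-like (cluster 5), with 6 of 8 stem cell markers past the bounds for a name. Cluster 6 also had 6 stem markers past them (and 3 of cycling cells), and cluster 9 had 6 of Paneth and 3 of cycling cells. Both stayed unnamed because their median counts a cell were 0.263 and 0.062 of those of their own cultures and no listed marker was among their 10 leading genes. Those of cluster 9 did include Defa37, Defa42, Defa33 and Defa2, of the same defensin family as markers on the Paneth list but not on it. Lgr5, the receptor that marks crypt base stem cells, stood at 216 ± 15.3 CPM (counts per 1000000 summed counts) in stem-like cells, 106 ± 26.7 CPM in cycling-like cells and 7.75 ± 5.06 CPM in enterocyte-like cells (SD, n = 5 cultures). Its mean was higher in the unnamed cluster 6, at 279.5 ± 68.05 CPM (SD, n = 5). Ascl2, another stem marker, hardly differed between stem-like and cycling-like cells, at 153 ± 24.3 and 142 ± 17.9 CPM (SD, n = 5). Rgmb, Slc12a2, Axin2 and Smoc2 also had a higher mean in cluster 6 than in stem-like cells, and Olfm4, Ascl2 and Gkn3 a lower one. Etv1 itself had 20, 20 and 13 counts in the mutant cultures and 45 and 44 in the control cultures, and 2 counts in all stem-like cells together. Its log2 fold change, mutant over control, was -1.001 with an adjusted p of 0.9997 (edgeR's quasi-likelihood test, all cells), and almost all its counts lay in enteroendocrine-like cells, at 194 ± 53.1 CPM (SD, n = 5). Organoids hold no tissue mesenchyme by design, and the mesenchymal markers Col1a1, Col1a2, Col3a1, Pdgfra, Dcn and Acta2 had 0 counts in the cells of the 5 cultures, while Vim and Pdgfrb had 74 and 18, and the 8 listed markers summed to 1.07 to 2.09 CPM in mutant and 3.71 to 5.38 CPM in control cultures.

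Edn1 was concentrated in stem-like cells, which gave 50.9% of its 1789 counts with 18.0% of all counts in the data. Its level there was 100, 157 and 173 CPM in mutant cultures 1 to 3 and 226 and 137 CPM in control cultures 1 and 2. In cycling-like cells it was 23.3, 29.8 and 15.6 CPM in the mutant cultures and 10.5 and 26.8 CPM in the controls, and in every culture it lay below the stem-like level of the same culture. The stem-like mean of 158.5 ± 46.6 CPM was 7.47 times that of cycling-like cells, 21.2 ± 8.003 CPM, with ratios from 4.3 to 21.6 within cultures (SD, n = 5). Enterocyte-like cells were intermediate at 49.96 ± 12.37 CPM, and stem-like cells exceeded them in 5 of 5 cultures, by 1.93 to 6.58 times. Within the enterocyte-like class, Edn1 averaged 58.9 CPM in cluster 1 (led by Lgals3, F3, Areg and Anxa1) and 29.3 CPM in cluster 7 (led by Apoa1), with overlapping ranges of 41.9 to 80.9 CPM and 15.8 to 49.7 CPM over cultures. Cluster 2, an unnamed cluster led by Atf5, Psat1 and Asns, goblet/Paneth-like cells and enteroendocrine-like cells held 22.3, 18.0 and 21.8 CPM, and the ranges of these neighbours overlapped throughout.

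Pthlh was low in counts (463 in all) and was nearly absent from enterocyte-like cells. Stem-like cells held 41.0, 43.7 and 43.7 CPM in mutant cultures 1 to 3 and 25.5 and 32.3 CPM in control cultures 1 and 2, from 202 counts. The mutant cultures all lay above the controls there, and the difference did not pass the test (edgeR, adjusted p = 0.782). Groups did not overlap for 21.2% of the 7787 genes tested in stem-like cells. Cycling-like cells held 18.0, 11.03 and 10.4 CPM in the mutant cultures and 12.6 and 22.1 CPM in the controls, below the stem-like level in 5 of 5 cultures, and the stem-like mean was 2.51 times theirs. Cycling-like cells contributed 34.3% of all Pthlh counts and 32.9% of all counts. Enterocyte-like cells gave 5 Pthlh counts in 237 cells, or 0.664 ± 0.620 CPM (SD, n = 5). Goblet/Paneth-like cells averaged 6.35 CPM, cluster 2 8.70 CPM and enteroendocrine-like cells 10.1 CPM, the last from 7 counts.

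Pdgfa was spread over more classes, with 35.0% of its 3846 counts in stem-like cells, 23.9% in cycling-like cells and 19.2% in enterocyte-like cells. Stem-like cells had 217, 226 and 282 CPM in mutant cultures 1 to 3 and 261 and 218 CPM in control cultures 1 and 2. Their mean of 241 ± 29.0 CPM was 2.57 times that of cycling-like cells (93.5 ± 19.6 CPM) and 1.91 times that of enterocyte-like cells (126 ± 15.5 CPM), with the stem-like value higher in 5 of 5 cultures in both comparisons (SD, n = 5). Both enterocyte-like clusters held it, cluster 1 at 123.5 CPM and cluster 7 at 127 CPM. Goblet/Paneth-like cells were lowest with 49.0 ± 16.0 CPM, next to enteroendocrine-like cells with 60.3 ± 29.6 CPM, and these did not differ beyond their spread.

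Ccn1 was also high in goblet/Paneth-like cells. It stood at 159, 162 and 154 CPM in stem-like cells of mutant cultures 1 to 3 and at 122 and 128 CPM in those of control cultures 1 and 2. In goblet/Paneth-like cells it was 69.8, 146 and 74.9 CPM in the mutant cultures and 44.1 and 149 CPM in the controls, below the stem-like level in 4 of 5 cultures. The mean ratio of 1.501 between these classes was therefore within the spread of the goblet/Paneth-like values. Cycling-like cells (35.3 ± 10.3 CPM) and enterocyte-like cells (11.7 ± 6.33 CPM) were lower, by 4.11 and 12.4 times in the means and in 5 of 5 cultures each (SD, n = 5). Cluster 1, the enterocyte-like cluster with Edn1 and F3, had the lowest Ccn1 mean of all clusters, 11.1 CPM.

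Ccn2 was close to the limit of detection. It gave 30 counts in 15 of 1432 cells, of which 13 counts lay in 7 stem-like cells, 4 in each of cluster 2 and goblet/Paneth-like cells, 6 in 1 cell of cluster 6 and 3 in cycling-like cells. Enterocyte-like cells had 0 of 237 cells with a count, which allows a share of up to 1.27%. The stem-like values were 0, 0.911 and 3.45 CPM in mutant cultures 1 to 3 and 5.24 and 1.35 CPM in control cultures 1 and 2. No order of classes could be read at this depth.

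**Figure D1:**
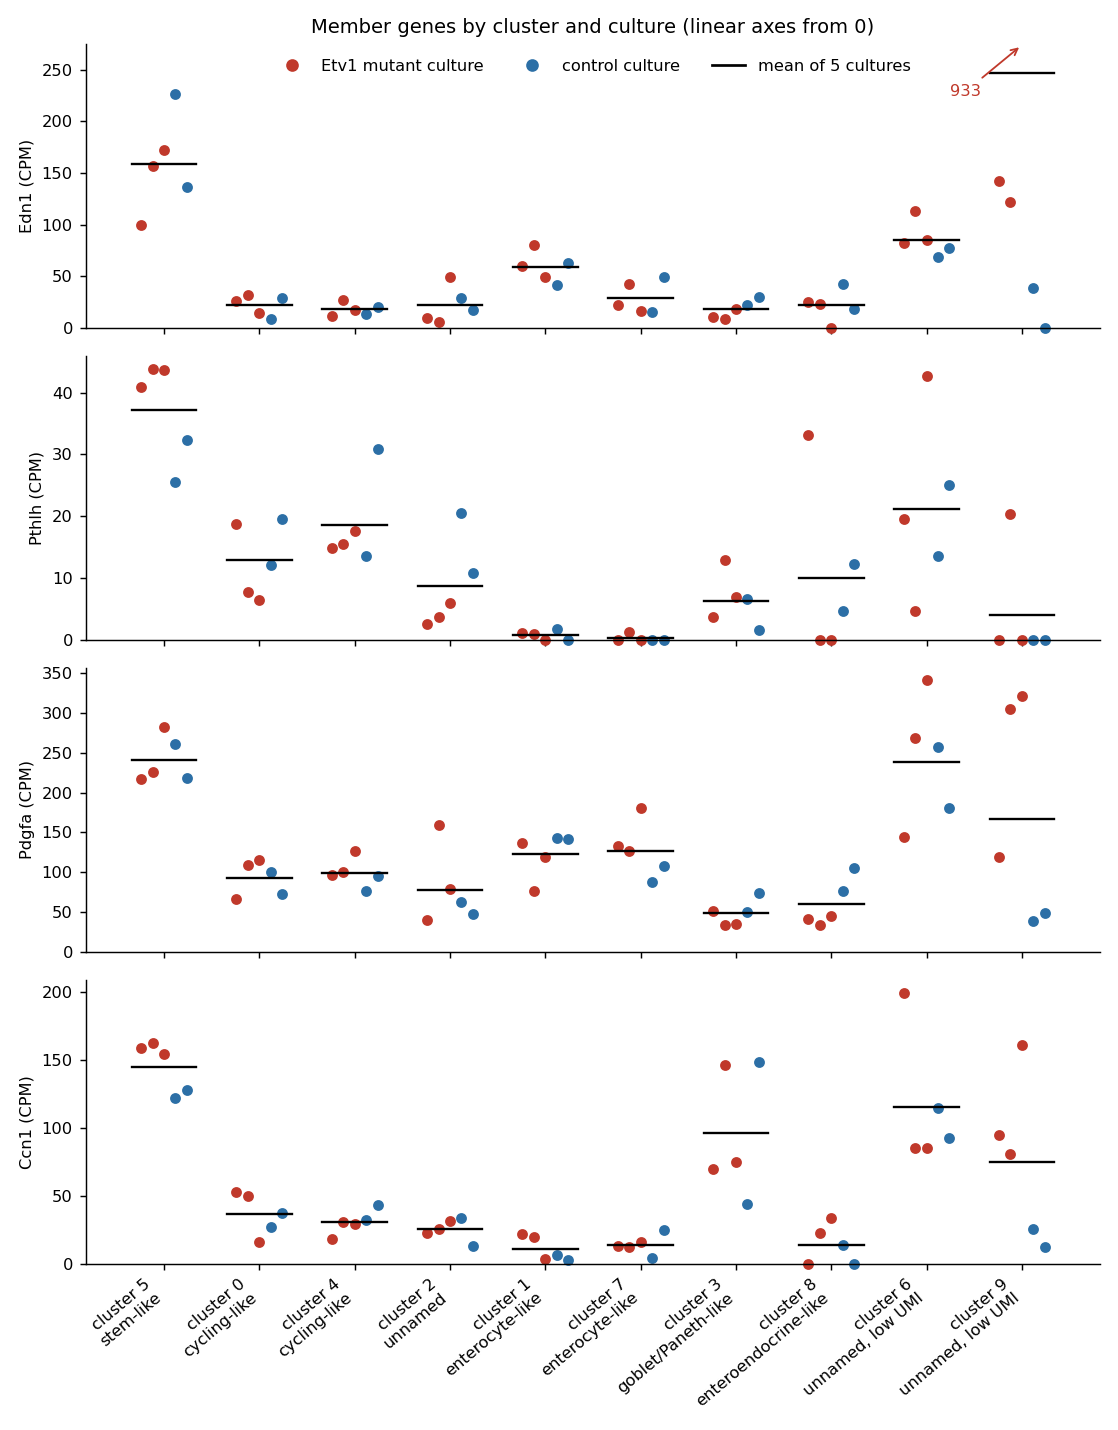
CPM (linear axes from 0) of Edn1, Pthlh, Pdgfa and Ccn1 in the 10 clusters, with 1 point a culture, mutant cultures in red left of control cultures in blue, and a black line at the mean of the 5 cultures. Stem-like cells (cluster 5) have the highest mean of Pthlh, Pdgfa and Ccn1, with ranges over cultures that overlap those of cluster 6. For Pdgfa these 2 means are nearly level, at 241 and 238 CPM. The Edn1 point at 933 CPM, drawn as an arrow beyond the axis, is mutant culture 3 in cluster 9, where 29 counts came from 1 cell.

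Clusters 6 and 9, with a median of 5863 and 1344 counts a cell, also held member transcripts. Cluster 6 was close to stem-like cells in Pdgfa and lower in the means of Edn1, Pthlh and Ccn1. Cluster 6, in which mitochondrially encoded transcripts took 147200 CPM against 37880 CPM in stem-like cells, had 238 ± 77.5 CPM of Pdgfa, 115 ± 48.3 CPM of Ccn1, 85.3 ± 16.9 CPM of Edn1 and 21.1 ± 14.2 CPM of Pthlh (SD, n = 5). Its 8 stem markers summed to 4988 CPM, against 5372 CPM in stem-like cells and 2298 CPM in cycling-like cells. Cluster 9 had 4.06 CPM of Pthlh, from 2 counts, and 74.96 CPM of Ccn1. In cluster 9, Edn1 ranged from 0 to 933 CPM over cultures, and 29 of its 50 counts came from 1 cell of mutant culture 3. The part that low depth and high mitochondrial content play in these levels was not tested.

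**Figure D2:**
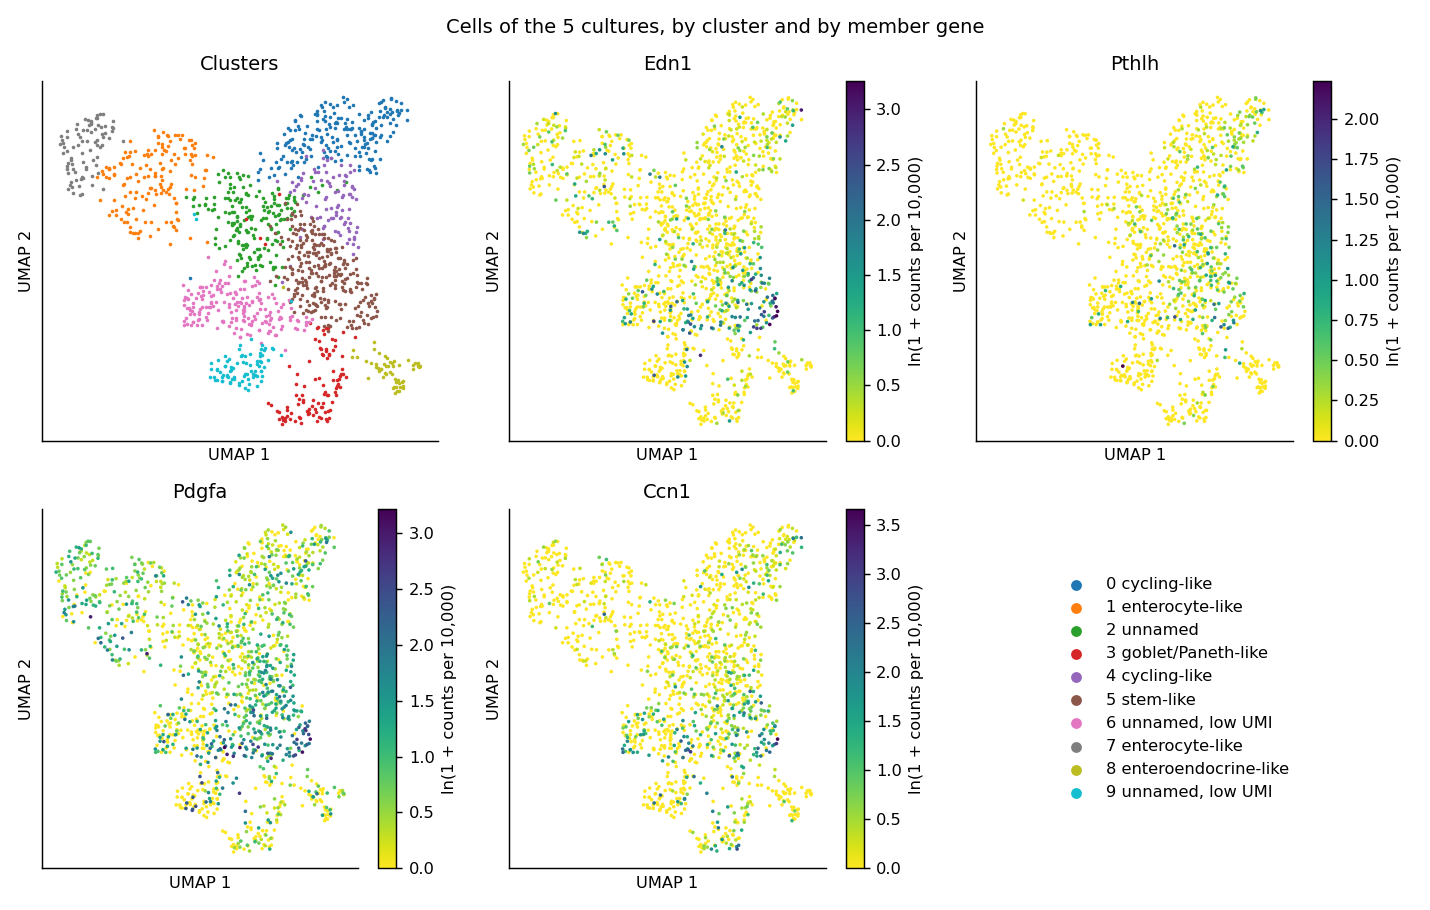
UMAP of the 1432 cells of the 5 cultures (axes without units), coloured by cluster in the first panel and by the natural log of 1 plus counts per 10000 in the panels of Edn1, Pthlh, Pdgfa and Ccn1. Dark points of Edn1 and Ccn1 gather in the lower part of cluster 5, and Pthlh is pale over the enterocyte-like clusters 1 and 7.

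Shares of cells with a count were compared at equal depth, each cell thinned to 10293 counts, which left out 346 of 1432 cells. Edn1 was found in 40.3% of 258 stem-like cells (95% exact binomial interval 34.3 to 46.6%; 49.1% unthinned), 14.2% of 303 cycling-like cells (10.5 to 18.6%) and 22.0% of 191 enterocyte-like cells (16.3 to 28.5%). Pthlh was found in 26.0% of stem-like cells (20.7 to 31.8%; 38.9% unthinned) and 12.9% of cycling-like cells (9.32 to 17.2%). In enterocyte-like cells Pthlh was found in 0 of 191 thinned cells, which allows a share of up to 1.57% by a limit of 3 counts and 1.91% by the exact interval, against 2.11% of 237 cells unthinned. Ccn1 was found in 43.0% of stem-like cells (36.9 to 49.3%), 37.2% of 86 goblet/Paneth-like cells (27.0 to 48.3%) and 7.33% of enterocyte-like cells (4.07 to 11.99%). Pdgfa was found in 73.6% of stem-like cells (67.8 to 78.9%) and 58.1% of enterocyte-like cells (50.8 to 65.2%). Within the enterocyte-like class its share was 73.8% of 61 cells in cluster 7 (60.9 to 84.2%), level with stem-like cells. In cluster 1 it was 50.8% of 130 cells (41.9 to 59.6%). Median counts a cell before thinning were 20930 in stem-like, 32360 in cycling-like and 27090 in enterocyte-like cells. Intervals cover counting error only, since cells of a culture are not independent replicates. In the class with the lowest share, Pthlh was in 0 of 191 enterocyte-like cells, Ccn1 in 0 of 24 enteroendocrine-like cells (exact interval up to 14.2%), Edn1 in 1 of 24 (up to 21.1%) and Pdgfa in 33.3% of 24 (15.6 to 55.3%). The upper limits from 24 cells are wide, and the cycling-like share of Edn1 and the enterocyte-like share of Ccn1 lay below theirs. These limits do not measure free RNA, and its part in the shares was not tested.

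Within the stem-like class a minority of cells carried most of the counts of Edn1 and Ccn1. The 27 stem-like cells richest in Edn1 held 58.2% of its 910 counts, the richest holding 43, and 135 of 265 cells had none. The 27 richest in Ccn1 held 54.8% of its 797 counts, the richest holding 41. Pdgfa was spread over more cells, with a count in 232 of 265 and 32.6% of its 1345 counts in the 27 richest. As a description of cells of the same cultures, among 258 thinned stem-like cells Ccn1 was present in 63.5% of the 104 cells with Edn1 and in 29.2% of the 154 cells without. Pthlh was present in 31.7% and 22.1%, and Pdgfa in 81.7% and 68.2%, of the same cells. At this depth 19 cells held Edn1, Pthlh, Pdgfa and Ccn1 together and 25 held none of them.

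Clustering at resolution 1.2 placed 260 of the 265 stem-like cells in 2 sub-clusters, numbered 8 (177 cells in all) and 5 (126 cells), and the members stood higher in sub-cluster 8. By the rule for names sub-cluster 8 was stem-like, with 8 stem markers past the bounds. Sub-cluster 5 had 2 and stayed unnamed. In sub-cluster 8 Edn1 had 145, 240 and 235 CPM in mutant cultures 1 to 3 and 353 and 209 CPM in control cultures 1 and 2. In sub-cluster 5 it had 46.2, 25.7 and 20.8 CPM in the mutant cultures and 39.7 and 32.7 CPM in the controls, so the means were 236 ± 75.3 and 33.0 ± 10.3 CPM (SD, n = 5 each). Ccn1 had 205 ± 27.6 CPM against 51.4 ± 13.5 CPM, Pdgfa 324 ± 63.8 CPM against 140 ± 34.2 CPM and Pthlh 46.7 ± 15.6 CPM against 21.1 ± 6.57 CPM (SD, n = 5 each). The ranges over cultures did not overlap for any of these genes; the closest were those of Pthlh, with 29.5 CPM as the lowest value of sub-cluster 8 and 26.8 CPM as the highest of sub-cluster 5. Lgr5 was 284 ± 30.2 CPM in sub-cluster 8 and 138 ± 32.5 CPM in sub-cluster 5, while Ascl2, a transcription factor of crypt base stem cells, was 147 ± 12.98 CPM and 154 ± 40.4 CPM, within its spread. All 15 immediate early genes listed, which respond within minutes to growth factors, stress and cell dissociation, had a higher mean in sub-cluster 8, with a sum of 3543 ± 599 CPM against 1777 ± 501 CPM. Atf3, one of them, had 259 CPM against 35.0 CPM. Myc was nearly level, at 100.3 against 96.9 CPM, and Fosl1 was close to the limit of detection, at 0.513 against 0 CPM. Mitochondrially encoded transcripts summed to 42550 and 33750 CPM, and median counts a cell were 18830 and 21740. The part of these in the members' levels was not tested, and the sub-clusters were formed from the same genes.

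**Figure D3:**
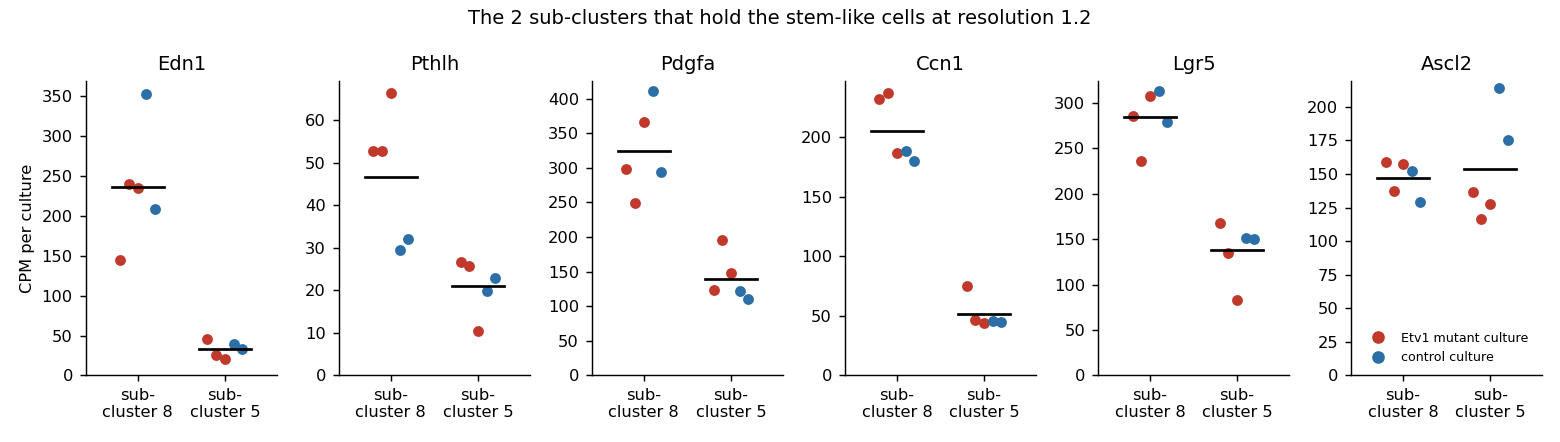
CPM of Edn1, Pthlh, Pdgfa, Ccn1, Lgr5 and Ascl2 in the 2 sub-clusters that hold most stem-like cells at Leiden resolution 1.2, with 1 point a culture (mutant red, control blue) and a line at the mean of 5 cultures. The sub-cluster 8 values of the first 5 genes all lie above those of sub-cluster 5, whereas Ascl2 overlaps.

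The sum of the immediate early transcripts over classes did not follow the order of Ccn1. It was 2876 ± 533 CPM in stem-like, 3596 ± 501 CPM in goblet/Paneth-like, 1545 ± 171 CPM in cycling-like and 1675 ± 244 CPM in enterocyte-like cells (SD, n = 5). It was highest in enteroendocrine-like cells, at 4895 ± 1428 CPM, where Ccn1 was 14.2 ± 14.7 CPM. Its part in the level of Ccn1 was not tested.

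The levels were also computed on the 1054 filtered barcodes with no hashtag call, of which 197 took the stem-like cluster from their nearest neighbours. They come from the same table on which the members were chosen, and the members were among the genes that placed them, so their values are a further description and no independent support. They had 137 CPM of Edn1, 37.6 CPM of Pthlh, 238 CPM of Pdgfa and 110 CPM of Ccn1, against 29.6, 24.98, 78.8 and 47.0 CPM in 87 cycling-like and 47.2, 1.41, 157 and 21.8 CPM in 213 enterocyte-like barcodes. Edn1, Pthlh, Pdgfa and Ccn1 were among the 10 leading genes of the stem-like cluster, so cells were also clustered without the 5 genes. Of the 265 stem-like cells 250 stayed stem-like, and the stem-like levels were then 145 CPM of Edn1, 35.1 CPM of Pthlh, 243 CPM of Pdgfa and 139 CPM of Ccn1.

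The genes of the same ligand families were mostly low or placed elsewhere. Edn2, another endothelin, had 22.3 CPM in enterocyte-like cells and 1.06 CPM in stem-like cells, and Edn3 had 40 counts in all. Ece1, the endothelin-converting enzyme, was present in every class, from 9.74 CPM in cluster 2 to 37.7 CPM in enteroendocrine-like cells, with 14.2 CPM in stem-like cells. Pdgfb had 85 counts, Pdgfc 8 and Pdgfd 1. Ccn3 had 3 counts, and Ccn4, Ccn5 and Ccn6 had none. Pth and Pth2 had none.

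Receptors for these ligands were at or near 0 in the same cells. Ednra had 5 counts and Ednrb 0, Pth1r had 3 and Pth2r 0, and Pdgfra had 0 and Pdgfrb 18 counts in 1432 cells. Integrins and co-receptors that bind CCN proteins were detected: Itgb1, the beta-1 integrin chain, had 90.0 CPM in stem-like cells and 101 CPM over all cells, Itga6 had 52.4 and 51.6 CPM, and Lrp6, a Wnt co-receptor, had 23.3 and 22.8 CPM. None of the 7 genes of that list with at least 20 counts had its highest class mean in stem-like cells.

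Other genes known as YAP and TEAD targets had their highest levels in several classes. These rankings covered the named classes and left out the unnamed clusters 2, 6 and 9. Of the 10 such genes that had at least 20 counts and are not members, 1, Crim1, was highest in stem-like cells. Among all 11837 genes with that many counts, 10.4% were highest there. F3, which encodes tissue factor, had 5.29 CPM in stem-like cells and 167 CPM in enterocyte-like cells, and Gadd45a was highest in enteroendocrine-like cells, at 298 CPM. Yap1 itself was 14.9 CPM in stem-like and 10.9 CPM in cycling-like cells, and its paralogue Wwtr1 had 0 counts. Of 15 immediate early genes, 3 (Klf6, Dusp1 and Myc) had their highest mean among the named classes in stem-like cells. Myc was level with cluster 2 (100 and 100.4 CPM), and Dusp1 was close to goblet/Paneth-like cells (42.85 and 41.33 CPM). Of 9 actin and serum response factor targets none was highest in stem-like cells.

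The genes most like each member were found from the Pearson correlation of log2(CPM + 1) over 30 sums, 6 classes in each of 5 cultures, among 9291 genes. The classes were stem-like, cycling-like, enterocyte-like and goblet/Paneth-like cells and clusters 2 and 6. Enteroendocrine-like cells and cluster 9, with as few as 8 and 9 cells in a culture, were left out. The sums share cultures and depth, and the values are a description. The nearest gene to Edn1 was Pdgfa (r = 0.77), followed by Hdac11, Fgf1, Hbegf and Lamb3 (0.71 to 0.67), of which Fgf1 and Hbegf also encode growth factors. The nearest to Pthlh were Tmprss4 (r = 0.90), Nme4, Ell3, Cnn3 and Efna4, and the nearest to Ccn1 were St6galnac2 (r = 0.89), Jun (0.87), Fermt1, Slc23a3 and Jmy. In the enteroendocrine-like cells that were left out, all these Ccn1 neighbours had a higher mean than in stem-like cells (Jun 1140 against 672 CPM). Ccn1 itself had 14.2 CPM there against 145 CPM. After Edn1, Pdgfa was most like Cask, Kazn, Nlrp6 and Thra (0.73 to 0.72). Among the members the pairs Edn1 and Pdgfa (0.77) and Pthlh and Ccn1 (0.70) stood above the others, whose r lay between 0.28 and 0.41. The first pair was present in enterocyte-like cells and the second was low there. Ccn2 was too low to be used.

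The Etv1 mutant and control cultures were then compared gene by gene, on counts summed per culture, to ask whether any member differed with genotype. None of the members passed an adjusted p of 0.05 in any class, and every log2 fold change below is mutant over control from edgeR's quasi-likelihood test with Benjamini-Hochberg adjustment over all genes tested. Ccn2 failed the filter on low counts in every comparison, and Pthlh failed it in enterocyte-like cells. Over all cells 0 of 4 members passed, beside 0.00904% of 11061 genes. Edn1 had 39.5, 61.8 and 69.2 CPM in the mutant cultures and 63.6 and 55.4 CPM in the controls, a log2 fold change of -0.08 (95% interval -0.61 to 0.45, adjusted p = 0.9997). For Pthlh, Pdgfa and Ccn1 the estimates were -0.09 (-0.46 to 0.29), 0.03 (-0.35 to 0.41) and 0.12 (-0.16 to 0.41), all with an adjusted p of 0.9997. The CPM of mutant and control cultures overlapped for all 4 of them, while they did not overlap for 16.9% of all genes tested. A change in the number of cells of a class and a change in the level per cell cannot be told apart in these sums over all cells.

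In stem-like cells, 35, 50 and 41 in the mutant cultures and 65 and 74 in the controls, Pthlh and Ccn1 were higher in all 3 mutant cultures than in both controls, and neither passed the test. Pthlh averaged 42.8 ± 1.58 CPM in mutant cultures (SD, n = 3) and 28.9 ± 4.85 CPM in controls (SD, n = 2), a log2 fold change of 0.50 ± 0.21 (SE; 95% interval 0.07 to 0.94, adjusted p = 0.782). Ccn1 averaged 158.5 ± 4.08 CPM in mutant cultures and 125 ± 4.15 CPM in controls, a log2 fold change of 0.28 ± 0.12 (SE; 0.02 to 0.54, adjusted p = 0.803). Groups without overlap were 2 of 4 members here, beside 21.2% of 7787 genes tested, and 0.0385% of those genes passed the adjusted threshold. Edn1 had a log2 fold change of -0.39 ± 0.20 (SE; -0.82 to 0.03, adjusted p = 0.896), with control culture 1 highest and mutant culture 1 lowest; without control culture 1 the estimate was 0.03. Pdgfa, at 242 ± 35.1 CPM in mutant cultures and 239.5 ± 30.02 CPM in controls, had a log2 fold change of -0.05 (-0.32 to 0.22, adjusted p = 0.985). With MULTIseqDemux the estimate of Ccn1 was 0.14 (-0.23 to 0.51) and with equal numbers of cells per culture 0.46, while that of Pthlh was 0.83 with equal numbers of cells and 0.84 at resolution 1.2; none passed. Without the cell richest in each member in each culture, an alternative added after the data had been seen, the estimate was 0.31 for Pthlh and 0.43 for Ccn1, and neither passed (adjusted p = 0.938 and 0.675, edgeR).

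**Figure D4:**
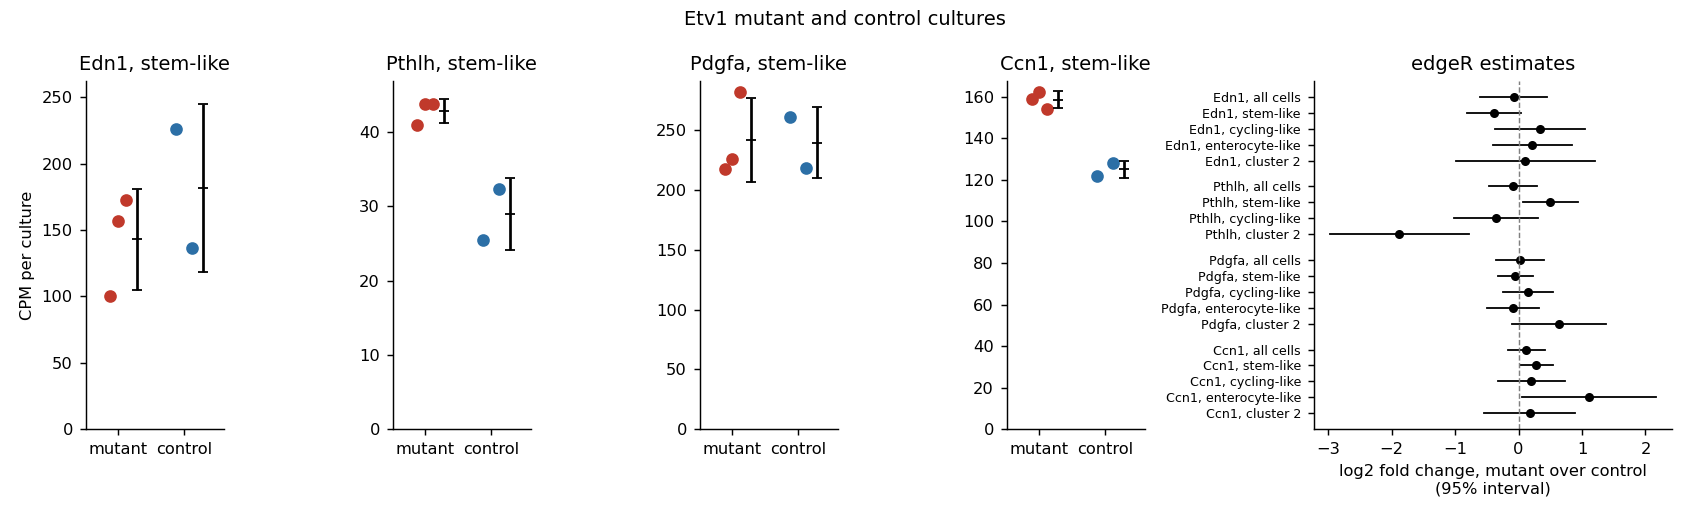
Left panels: CPM of Edn1, Pthlh, Pdgfa and Ccn1 in stem-like cells, 1 point a culture, mutant left of control, with mean and SD in black. Right panel: log2 fold change, mutant over control, with its 95% interval from edgeR for each member and class tested; most intervals span 0, and no adjusted p was under 0.05.

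Shares of stem-like cells with a count were compared after thinning to 14511 counts, and no exact test was under 0.05, which 5 cultures cannot reach. Ccn1 was found in 50, 46.8 and 60.0% of stem-like cells in the mutant cultures and in 46.7 and 42.2% in the controls, a difference of 7.84 percentage points (two-sided exact permutation test, p = 0.2; the smallest possible is 0.1). Pthlh was found in 34.4, 31.9 and 34.3% against 30 and 31.3% (2.90 points, exact p = 0.2). The mutant shares of Ccn1 and of Pthlh all lay above the control shares, for Ccn1 by as little as 46.81 against 46.67%. How many of all genes separate in this way was not computed. Without thinning the differences of Ccn1 and Pthlh were 2.72 and 5.79 points with overlapping groups (exact p = 0.7 and 0.3). The differences of Edn1, Pdgfa and Ccn2 were 3.73, -0.73 and 0.83 points (exact p = 0.5, 1 and 0.6). Adjusted over the 5 genes by the Benjamini-Hochberg method, the exact p-values lay between 0.5 and 1.

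In the other classes with at least 20 cells in every culture, no member passed, beside 0.0217% of genes in cycling-like cells, 0% in enterocyte-like cells (177 of 7244 genes at an unadjusted p under 0.05) and 0.0134% in cluster 2. Pthlh in cluster 2 was lower in all mutant cultures, with 2.50, 3.71 and 5.96 CPM in the mutant cultures and 20.5 and 10.8 CPM in the controls, from 10 and 41 counts. Its log2 fold change was -1.87 ± 0.52 (SE; 95% interval -2.97 to -0.78, adjusted p = 0.592). With no filter on low counts the same change had an adjusted p of 0.0425. The share of all genes whose groups did not overlap was not computed in cluster 2. Ccn1 in enterocyte-like cells was 20.4, 16.4 and 7.23 CPM in the mutant cultures and 5.84 and 8.82 CPM in the controls, with a log2 fold change of 1.11 (0.06 to 2.17, adjusted p = 0.9997) and overlapping groups. In cycling-like cells the estimates of Edn1, Pthlh, Pdgfa and Ccn1 were 0.34, -0.35, 0.15 and 0.20, each with an interval that spans 0.

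Whether a genotype difference itself differed between classes was tested as an interaction, with the culture as a block. Against cycling-like cells 0 of 4 members passed, beside 0.0337% of 8894 genes. The difference of Pthlh was 0.88 higher in stem-like than in cycling-like cells on the log2 scale (95% interval 0.20 to 1.57, adjusted p = 0.866), and that of Edn1 was -0.77 (-1.48 to -0.05, adjusted p = 0.951). The value of Edn1 rested on single cultures: it was -1.99 with an adjusted p of 0.00267 without control culture 2, and 0.12 without control culture 1. Against cluster 2 and against enterocyte-like cells, 2 comparisons added after the data had been seen, 0% of genes passed in each (433 and 267 genes at an unadjusted p under 0.05). For Pthlh the genotype difference in stem-like cells exceeded that in cluster 2 by 2.38 (1.299 to 3.459, adjusted p = 0.285); without control culture 2 it was 2.91 with an adjusted p of 0.0365, and without control culture 1 it was 1.71.

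The lists of ligands, receptors, integrins, YAP and TEAD targets, Hippo components, immediate early genes, actin and serum response factor targets, ERK feedback genes and prohormone processing held no gene that passed in any of these classes. Of 14 immediate early genes tested in stem-like cells 12 had a positive estimate, with a median of 0.17 beside 0.00 for all 7787 genes. The summed level of the list there overlapped between genotypes, with 3226, 2417 and 3520 CPM in the mutant cultures and 2959 and 2260 CPM in the controls. The same list had 11 of 12 positive estimates in cluster 2 (median 0.61), 11 of 14 in cycling-like cells (0.21), 8 of 12 in enterocyte-like cells (0.12) and 10 of 14 over all cells (0.10). In stem-like cells Atf3, at 0.43, and Klf6, at 0.54, had the smallest p of them (adjusted p = 0.70 for both, edgeR). Of 22 YAP and TEAD targets listed 3 passed the filter on low counts there, Crim1, Gadd45a and Ccn1, with estimates of 0.67, 0.79 and 0.28. Over all cells Edn2 was estimated at 1.45 ± 0.61 (SE), Fos at 0.35 ± 0.10, Mob1b at -0.25 ± 0.09 and Pcsk1, a prohormone convertase of enteroendocrine cells, at -1.08 ± 0.40, each with an adjusted p of 0.9997.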

How the data were processed

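Single-cell RNA and hashtag libraries of 1 pooled sort were used. Per the submitters' processing notes, the tools were Cell Ranger 6.1.0, alevin, Salmon 1.4.0 and Seurat 4.3.0, and the build was mm10. The authors deposited estimated counts per gene and barcode (95.6% of values above 0 were whole) and whole-number hashtag counts per barcode. Sums per culture were rounded before testing.

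Barcodes were assigned to cultures with HTODemux (Seurat 5.3.0 in R 4.3.3, positive quantile 0.99). The 239 filtered barcodes that carried several hashtags were left out as doublets, and no doublet caller was run on the RNA counts. Cells had at least 500 detected genes and at most 25% mitochondrial counts. The 1432 cells were clustered with scanpy 1.11.5 in Python 3.11.15 (30 principal components of 2000 variable genes, 15 neighbours; Leiden clustering at resolution 0.8), and unassigned barcodes took the cluster of their 15 nearest neighbours. A cluster was named from at least 3 markers. Between 4193197 and 7254380 counts were summed per culture. Genotypes were compared with edgeR 4.0.16 (TMM scaling, filterByExpr, quasi-likelihood test, Benjamini-Hochberg adjustment, threshold 0.05) in classes with at least 20 cells in every culture; scripts were tested on simulated data. DESeq2 1.42.0, MULTIseqDemux, other resolutions, filters and cell sets were alternatives. How strand and overlapping genes were handled upstream is not stated in the labels.

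The members and the gene lists were chosen with earlier results of these data known. Genes named are the members, Etv1, detected family members and receptors, up to 3 list genes with the smallest p over all cells, and up to 5 nearest genes per member; other genes named from lists were chosen after their values were seen.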

Additional observations from a re-analysis of the deposited data

Results flagged for a closer look

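The genotype difference of Pthlh ran in opposite directions in 2 classes. In stem-like cells every mutant culture lay above both controls (41.0, 43.7 and 43.7 CPM in the mutant cultures, 25.5 and 32.3 CPM in the controls). In cluster 2 every mutant culture lay below both controls (2.50, 3.71 and 5.96 CPM in the mutant cultures, 20.5 and 10.8 CPM in the controls), from 51 counts in all. Groups did not overlap for 21.2% of the 7787 genes tested in stem-like cells. That share was not computed for cluster 2. The difference between the classes was 2.38 on the log2 scale and did not pass the interaction test (edgeR, adjusted p = 0.285); the comparison was added after the data had been seen, and the cause was not tested.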

How the results depend on the processing

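Of 146 alternatives for log2 differences between genotypes, not counting those that leave out a culture, 133 kept the direction and the side of the threshold, 12 changed direction and 1 newly passed. With equal numbers of cells per culture the estimates were 0.0295 for Edn1 over all cells, 0.12 for Pdgfa in stem-like cells, -0.33 for Edn1 and -0.0279 for Ccn1 in cycling-like cells and 0.16 for Pdgfa in enterocyte-like cells. With MULTIseqDemux they were 0.19 for Pdgfa in stem-like cells, -0.11 for Ccn1 in cycling-like cells and 0.27 for Pdgfa in enterocyte-like cells. At most 15% mitochondrial counts gave -0.0029 for Pdgfa over all cells, DESeq2 gave -0.0642 for Edn1 in cluster 2, and leaving out the richest cells, chosen after seeing the data, gave 0.17 for Pdgfa in enterocyte-like cells and -0.10 for Ccn1 in cluster 2. None of these 12 passed the threshold. With no filter on low counts 1 member, Pthlh in cluster 2, passed (-1.89, adjusted p = 0.0425, edgeR). Unthinned, the share difference of Ccn2 was -0.60 points. The causes were not tested.

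Leaving out 1 culture at a time gave these ranges of log2 differences. Over all cells they were -0.24 to 0.14 for Edn1, -0.25 to 0.0793 for Pthlh, -0.0860 to 0.17 for Pdgfa and -0.0431 to 0.30 for Ccn1. In stem-like cells they were -0.73 to 0.0300, 0.36 to 0.67, -0.19 to 0.10 and 0.27 to 0.30 for the same genes, and in cycling-like cells -0.15 to 1.18, -0.70 to 0.12, 0.01 to 0.37 and 0.01 to 0.42. In enterocyte-like cells they were -0.15 to 0.60 for Edn1, -0.16 to 0.0609 for Pdgfa and 0.81 to 1.36 for Ccn1. In cluster 2 they were -1.50 to 0.49 for Edn1, -2.36 to -1.60 for Pthlh, 0.14 to 1.01 for Pdgfa and -0.31 to 0.999 for Ccn1. For stem-like minus cycling-like they were -1.99 to 0.12, 0.58 to 1.24, -0.36 to -0.10 and -0.10 to 0.29, for stem-like minus cluster 2 (added after seeing the data, as is the next) -0.87 to 0.87, 1.71 to 2.91, -0.97 to -0.12 and -0.74 to 0.60, and for stem-like minus enterocyte-like -1.34 to 0.14, -2.76 to 1.298, -0.0934 to 0.18 and -1.05 to -0.55, in the order Edn1, Pthlh, Pdgfa and Ccn1. Share differences ranged over 1.06 to 7.84 points for Edn1, 2.28 to 3.71 for Pthlh, -4.22 to 2.76 for Pdgfa, 3.98 to 10.6 for Ccn1 and -0.0051 to 1.66 for Ccn2.

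Levels in stem-like cells stayed within 1 SD under 17 of 25 alternatives. At resolution 1.2 they were 236 CPM for Edn1, 46.7 for Pthlh, 324 for Pdgfa, 205 for Ccn1 and 4.63 for Ccn2. Ccn1 was 122 CPM at resolution 0.5 and 110 CPM in barcodes with no hashtag, and Pdgfa was 271 CPM as a mean over single cells. Calls over all genes ranged from 1 to 6 in all cells (1 as reported), 0 to 21 in stem-like cells (3), 0 to 36 in cycling-like cells (2), 0 to 39 in enterocyte-like cells (0) and 0 to 33 in cluster 2 (1), and in the last 4 the highest count came with no filter on low counts. Interaction calls ranged from 1 to 8 against cycling-like cells (3), 0 to 9 against cluster 2 (0) and stayed at 0 against enterocyte-like cells. No paired analysis was possible because the labels give the cultures no numbers that pair mutants with controls. Few counts limit Ccn2 in every class and Pthlh outside stem-like and cycling-like cells.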
